A study of Mus musculus with 9 samples.

Results

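The genes described are the secreted and membrane-bound axon guidance cues and their receptors. They were chosen by symbol: every gene called Sema, Plxn, Efna, Efnb, Epha, Ephb, Slit, Robo, Unc5 or Ntn followed by a number or a letter and number, together with Dcc, Nrp1 and Nrp2, without the Slitrk genes and without antisense genes. Of 71 symbols that meet the rule, 70 had an entry among the 51912 genes of the deposited tables, and Ntn3 is not analysed here. The 70 genes comprised 36 ligands and 34 receptors.

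The study measured RNA in neurons sorted from the hippocampus of male C57BL/6 mice that carried CamkⅡα-cre. Cre expressed from this driver, which is active mainly in excitatory forebrain neurons, switches on mCherry from the injected rAAV5-DIO-mCherry vector, and fluorescent cells were sorted 3 weeks after injection. The vector was given at 2.88e+08, 2.88e+09 or 2.88e+10 vector genomes, and the lowest dose served as the control. The design text names 3 groups, but the labels of the 9 libraries (S1001 to S1009) give no dose, all carry the same strain, genotype and cell type, and 0 of 9 libraries could be placed in a group. No age is stated for the animals, nor how many cells or animals stand behind a library. Levels are therefore given library by library, with no mean per dose and no test between doses.

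Axon guidance cues steer growing axons by attraction or repulsion, and in the adult brain many of them act at synapses and on dendritic spines. Semaphorins signal through plexins, and the secreted class 3 semaphorins mostly need a neuropilin as co-receptor. Ephrins are held at the cell surface and bind Eph receptor tyrosine kinases on the neighbouring cell. Slits signal through Robo receptors, and netrins through Dcc and the Unc5 receptors. In the hippocampus these families are known for guiding entorhinal, mossy fibre and commissural axons to their layers.

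Library totals ran from 12136830 to 19151596 counts, and the guidance genes took 0.190% to 0.247% of them. Between 61 and 69 of the 70 genes had at least 1 count in a library. S1001 to S1003 were the closest libraries. Levels are CPM, which are counts scaled to the library total with factors from the trimmed mean of M values (TMM). Pairs of libraries were compared on log2(CPM + 1), over the genes with at least 10 counts summed over the pair. Within a pair of S1001 to S1003 the median absolute difference was 0.12 to 0.16 on this log2 scale. The counts of these 3 libraries still differed by more than sampling noise (chi-square per gene of 2.67 to 5.14). The median difference was 0.26 to 0.31 within S1004 to S1006, 0.29 to 0.35 within S1007 to S1009 and 0.34 to 0.52 in the other 27 pairs. By this measure the last ranges overlapped. By chi-square per gene over all genes, these 3 sets of libraries, taken in name order, stood apart. It was at most 38.9 within a set and at least 83.3 in the other pairs. Over the guidance genes alone it overlapped, at up to 35.2 within a set and from 30.3 in the other pairs. The labels do not say how the sets relate to the doses. Spreads that rest on S1001 to S1003 are given with and without them.

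Pyramidal neuron markers were abundant in every library, with a summed level of 4499 to 10321 CPM over 12 genes. The 2 most abundant, Nrgn and Gria2, had 576 to 4203 CPM and 1224 to 1965.5 CPM. Summed markers of microglia and macrophages and of inhibitory neurons were less even. The 13 microglia and macrophage markers summed to 17063 to 18496 CPM in S1001 to S1003, to 5094 to 6499 CPM in S1004 to S1006 and to 27.8 to 146 CPM in S1007 to S1009. Inhibitory neuron markers summed to 288 to 337 CPM in S1001 to S1003, 716 to 1564 CPM in S1004 to S1006 and 514 to 1880.2 CPM in S1007 to S1009. In such bulk libraries, fewer cells of a type and less RNA per cell cannot be told apart.

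Some Eph receptors and ephrins held the highest levels, but other Eph receptors were among the lowest, with Epha1 and Ephb4 at a median of 0 FPKM. Levels between genes were compared in deposited FPKM, which are counts divided by the length of the gene and by the library total. Of the 70 genes, 8 had a median of at least 10 FPKM over the 9 libraries and 39 a median of at least 1 FPKM. Epha4, a receptor tyrosine kinase that binds ephrins of both the A and B class, was the most abundant, at a median of 42.2 FPKM (range 27.7 to 47.4). Efna3, a membrane-anchored A-class ephrin, had a median of 41.5 FPKM (29.8 to 48.4), and the ranges of these 2 genes overlapped, so their order is not settled by these libraries. Exons of another gene, Gm15998, cover 14.1% of the exonic bases of Efna3, and its level is uncertain to that extent. The other 6 genes above 10 FPKM were Epha7 (29.1 FPKM), Unc5a (22.1), Efnb3 (18.4), Epha6 (12.7), Sema3e (12.6) and Epha5 (11.8).

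**Figure D1:**
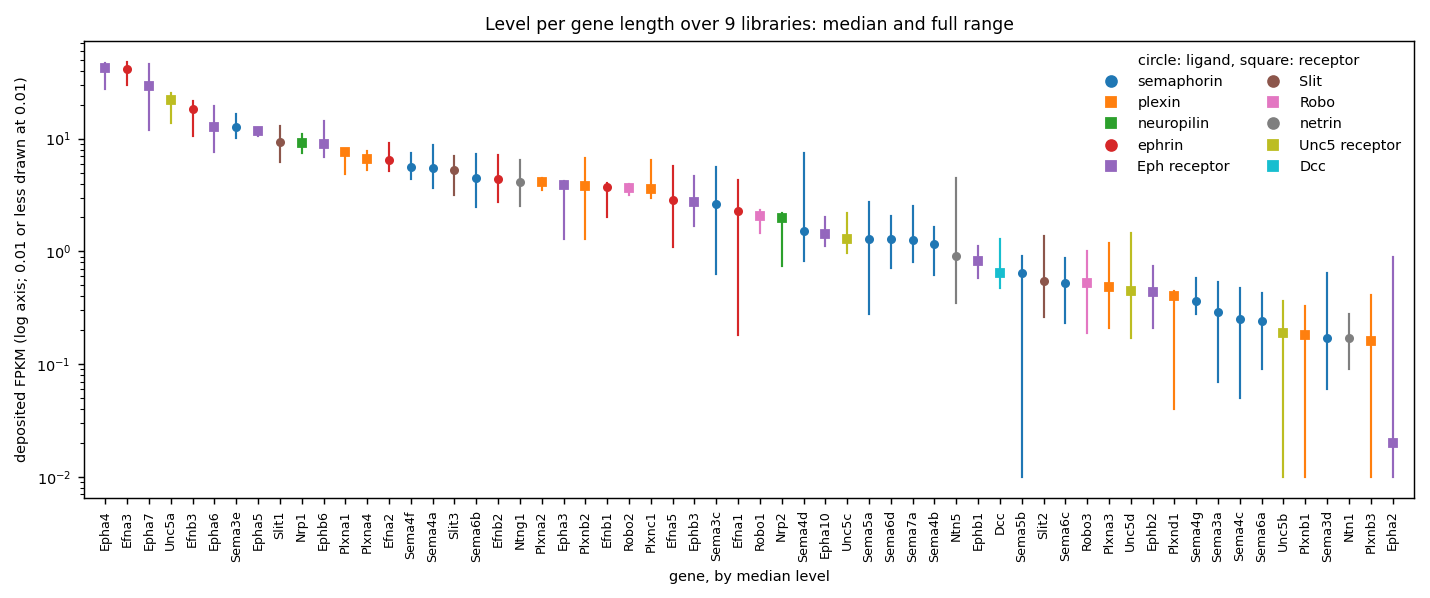
Deposited FPKM of the 60 guidance genes that averaged at least 1 CPM, on a log axis, ordered by median; each point is the median of 9 libraries and each line runs from the lowest to the highest library, with circles for ligands and squares for receptors. Epha4 and Efna3 lead at medians of 42.2 and 41.5 FPKM, and Epha2 has the longest range relative to its median.

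Ligands and the receptors known to bind them often stood at different levels. Sema3e, a secreted semaphorin that binds Plxnd1 without a neuropilin, was the highest semaphorin at a median of 12.6 FPKM (10.2 to 16.6), whereas Plxnd1 had 0.40 FPKM (0.04 to 0.45). Unc5a, a netrin receptor associated with repulsion, had a median of 22.1 FPKM (13.9 to 25.3). Its ligand Ntn1 had 0.17 FPKM (0.09 to 0.28) and Dcc, the receptor through which netrin attracts axons, 0.65 FPKM (0.47 to 1.28). In each of these comparisons the ranges over the 9 libraries did not overlap. Slit and Robo genes were closer together, with Slit1 at 9.35 FPKM, Slit3 at 5.29, Robo2 at 3.67 and Robo1 at 2.05. For the A-class plexins, the usual signalling partners of neuropilins, medians were 7.54 FPKM for Plxna1, 6.55 for Plxna4, 4.11 for Plxna2 and 0.48 for Plxna3, beside 9.20 for Nrp1 and 1.99 for Nrp2.

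Counts were scaled to CPM with factors from the trimmed mean of M values (TMM), and 60 of the 70 genes averaged 1 CPM or more. The 10 below it were Epha1, Epha8, Ephb4, Robo4, Efna4, Ntn4, Ntng2, Sema3b, Sema3f and Sema3g, with means from 0.0364 CPM for Ephb4 to 0.763 CPM for Sema3b. No guidance gene was at 0 in all libraries, and 58 had at least 1 count in every library. Where a library had 0 counts, the upper limit set by 3 counts was 0.158 to 0.246 CPM, depending on the library total. This limit covers counting error only. Epha2 and Plxnb3 reached the minimum of 1 CPM mainly through S1001 to S1003, the libraries in which they were high. Sema4c, Unc5b and Ntn1 averaged close to the minimum, at 1.23, 1.16 and 1.07 CPM. Sema4c and Ntn1 reached it only with S1001 to S1003 included. Without S1001 to S1003, 56 genes reached it.

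The spread of a gene was taken as the second highest minus the second lowest library in log2(CPM + 1), so that no single library sets it, and a gene was counted as varying at 2-fold or more. By this rule 21 of the 60 genes (35.0%) varied at least 2-fold, beside 26.4% of all 14787 genes that averaged 1 CPM or more. Their median spread was 0.72 on the log2 scale, beside 0.66 for all genes. The shares lay nearer at higher levels: 8 of 37 guidance genes that averaged 10 CPM or more varied 2-fold (21.6%, beside 18.3% of all genes at that level), against 13 of 23 between 1 and 10 CPM (56.5%, beside 41.6%). Of the varying genes, Epha2, Plxnb3 and Sema4c averaged 1 CPM only with S1001 to S1003 included. Without those libraries the count was 11 of 56 genes (19.6%, beside 15.5% of all genes). With a pseudocount of 5 CPM in place of 1 it was 7 of 60 (11.7%), below the 13.2% of all genes. From the highest to the lowest library it was 42 of 60 (70.0%, beside 52.6% of all genes). A single library stood past Dixon's critical gap from the next in 7 of the 60 genes (11.7%, beside 5.43% of all genes). These counts are descriptions, and how far the guidance genes stand from the background of all genes depends on the setting.

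By family, semaphorins gave the most varying genes, 9 of the 21: 9 of 17 semaphorins, 3 of 9 plexins, 1 of 2 neuropilins, 1 of 7 ephrins, 1 of 11 Eph receptors, 0 of 3 Slits, 1 of 3 Robos, 2 of 3 netrins, 2 of 4 Unc5 receptors and Dcc. Ligands accounted for 12 of 30 and receptors for 9 of 30. Just inside the 2-fold line were Sema6c (1.01 on the log2 scale) and Sema4c (1.03), and just outside it were Unc5c (0.98) and Slit2 (0.97).

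**Figure D2:**
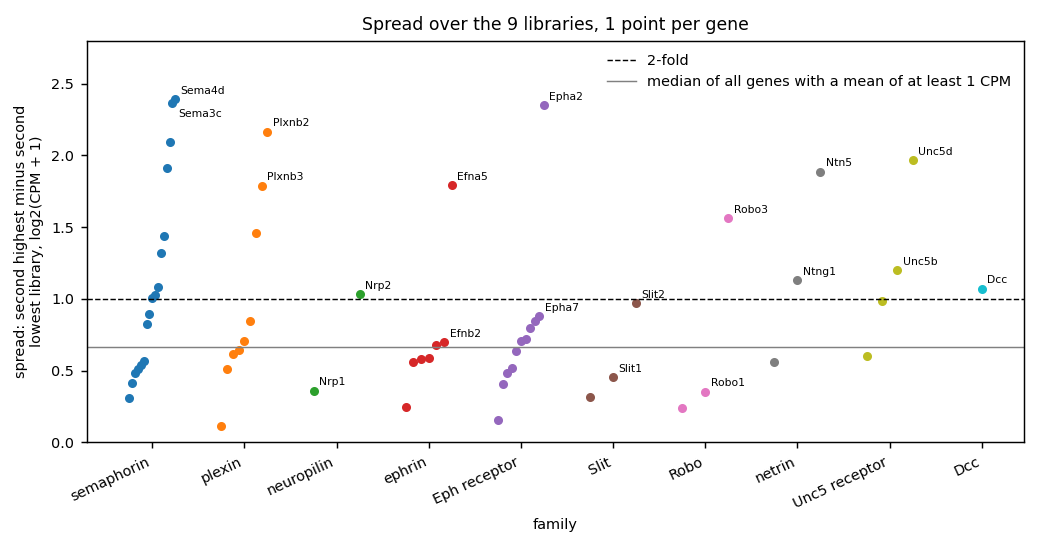
Spread of each guidance gene in log2(CPM + 1), second highest minus second lowest of 9 libraries, 1 point per gene and by family; the dashed line is 2-fold and the grey line the median of all genes, 0.66. Sema4d, Sema3c, Epha2, Plxnb2 and Sema5a lie above 2 on this scale, and the Slits lie below the dashed line.

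In 5 of the 21 varying genes S1001 to S1003 were the 3 highest libraries (Sema4d, Plxnb2, Plxnb3, Epha2 and Sema3d), in 3 they were the 3 lowest (Sema3c, Efna5 and Ntng1), and in 13 neither held. How often this holds among all varying genes was not counted, so these counts do not set the guidance genes apart. The first set is described next. Sema4d, a transmembrane semaphorin that binds B-class plexins, is known from immune cells and oligodendrocytes as well as neurons. The gene (ENSMUSG00000021451) lies on mm10 chr13:51685529-51793747. Its TMM-scaled level was 46.6, 48.0 and 45.8 CPM in S1001 to S1003, 9.11, 11.7 and 9.52 CPM in S1004 to S1006, and 8.07, 8.71 and 5.55 CPM in S1007 to S1009. All of S1001 to S1003 lay above all of the others, and the spread of 2.39 was the largest of any guidance gene. Over the other 6 libraries alone it was 0.22.

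Plxnb2 (ENSMUSG00000036606, chr15:89155549-89180788), a receptor for Sema4 class semaphorins, had 47.7, 44.0 and 46.1 CPM in S1001 to S1003, 27.2, 25.6 and 16.6 CPM in S1004 to S1006, and 9.69, 9.08 and 9.49 CPM in S1007 to S1009. Its level therefore stepped down across the 3 sets of libraries without overlap, and without S1001 to S1003 the spread was still 1.34. Plxnb3 (ENSMUSG00000031385, chrX:73757090-73772514), a receptor for Sema5a, had 2.62, 2.46 and 2.36 CPM in S1001 to S1003, which were 32, 32 and 31 counts. Elsewhere it had 3, 18 and 14 counts in S1004 to S1006 and 0, 0 and 1 count in S1007 to S1009. Its spread was 1.79, and 1.00 over S1004 to S1009 alone, at the edge of 2-fold. The remaining B-class plexin, Plxnb1, ranged from 0.135 to 3.27 CPM with a spread of 0.84. Its level stayed low in every library, so that Plxnb2, at a median of 3.77 FPKM, was the only B-class plexin with a median above 1 FPKM.

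Epha2 (ENSMUSG00000006445, chr4:141301240-141329384) is an ephrin-A receptor better known from epithelia than from neurons. It had 50, 44 and 55 counts in S1001 to S1003, or 4.10, 3.38 and 4.19 CPM, against 0, 1, 1, 0, 0 and 0 counts in S1004 to S1009. Nearly all of its reads thus came from S1001 to S1003, and over the other libraries its spread was 0.10. Sema3d, a secreted semaphorin, had 3.20 to 5.45 CPM in S1001 to S1003 and 0.509 to 1.79 CPM in the other libraries, a spread of 1.44 that was 0.66 without S1001 to S1003.

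Promoter windows, from 250 bases before to 50 after the annotated start, were taken from RefSeq on GRCm38.p6, the same build as mm10. They matched 60 of the 70 genes with 76 windows. S1001 to S1003 were the 3 highest libraries for 5 varying genes. Of these, Sema4d had no window at its GENCODE start, and Sema3d had the smallest spread. The other genes of this set, Plxnb2, Epha2 and Plxnb3, are shown. Epha5 (chr5:84054761-84417382), whose spread of 0.16 was among the smallest, is shown as an even gene beside them. Each is written 5′ to 3′ on the gene's strand, and capitals mark CG dinucleotides. The windows are chr15:89180739-89181038 (minus strand) for Plxnb2, chr4:141300971-141301270 (plus) for Epha2, chrX:73756853-73757152 (plus) for Plxnb3 and chr5:84417333-84417632 (minus) for Epha5.
Plxnb2: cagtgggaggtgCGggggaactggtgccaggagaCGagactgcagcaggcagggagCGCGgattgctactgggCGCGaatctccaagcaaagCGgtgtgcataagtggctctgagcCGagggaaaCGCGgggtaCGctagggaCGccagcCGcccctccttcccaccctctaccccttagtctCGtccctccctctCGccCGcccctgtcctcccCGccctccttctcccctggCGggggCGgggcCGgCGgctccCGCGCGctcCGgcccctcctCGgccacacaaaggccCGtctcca
Epha2: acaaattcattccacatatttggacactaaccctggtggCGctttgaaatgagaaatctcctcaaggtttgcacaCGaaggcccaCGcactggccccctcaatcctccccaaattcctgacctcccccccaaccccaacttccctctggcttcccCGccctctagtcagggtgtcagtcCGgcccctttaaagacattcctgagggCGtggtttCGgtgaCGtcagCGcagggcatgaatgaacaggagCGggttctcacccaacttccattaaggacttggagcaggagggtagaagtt
Plxnb3: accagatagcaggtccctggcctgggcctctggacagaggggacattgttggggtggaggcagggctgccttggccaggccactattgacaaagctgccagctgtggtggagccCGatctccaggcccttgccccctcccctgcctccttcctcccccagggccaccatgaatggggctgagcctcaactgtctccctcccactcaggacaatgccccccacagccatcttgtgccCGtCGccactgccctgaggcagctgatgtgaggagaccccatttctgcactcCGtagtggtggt
Epha5: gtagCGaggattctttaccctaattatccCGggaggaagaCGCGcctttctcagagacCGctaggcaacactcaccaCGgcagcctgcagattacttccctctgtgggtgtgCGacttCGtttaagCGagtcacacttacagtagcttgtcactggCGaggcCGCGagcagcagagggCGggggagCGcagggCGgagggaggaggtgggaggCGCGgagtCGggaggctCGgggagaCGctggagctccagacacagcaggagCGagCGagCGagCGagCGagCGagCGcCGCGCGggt

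The 4 windows differed widely in CG content, with 27 CG dinucleotides in Plxnb2, 10 in Epha2, 4 in Plxnb3 and 30 in Epha5. The 3 genes shown that were high together thus shared no CG level. Across 68 windows of 52 guidance genes that averaged 1 CPM or more, the median was 20.5, beside 20 in windows of all genes at that level. The GC box GGGCGG, searched on both strands, was present in 48 of these 68 windows (70.6%, beside 60.4% of 13756 windows of all such genes). It was found in Plxnb2, Epha2 and Epha5 and not in Plxnb3. The TATA box TATAAA was present in 2 of 68 (2.94%, beside 7.36%) and the E-box CACGTG in 4 (5.88%, beside 9.75%). For the AP-1 motif TGANTCA the count was 3 (4.41%, beside 5.01%), and for the PU.1 motif GAGGAAGT it was 0 (beside 2.97%). A match says only that these letters are in the window, and a missing match that they are not.

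Among the semaphorins that did not follow S1001 to S1003 upwards, Sema3c was the reverse of Sema4d. Sema3c (ENSMUSG00000028780, chr5:17574281-17730268), a secreted cue that binds neuropilins, had 4.51, 4.69 and 4.73 CPM in S1001 to S1003, 25.8, 11.6 and 28.3 CPM in S1004 to S1006, and 20.4, 39.4 and 19.5 CPM in S1007 to S1009. All 6 of the later libraries were above all of S1001 to S1003. Its spread was 2.37, and 0.47 over those 6 libraries alone. In the same order, the inhibitory neuron marker Gad1 had 37.7, 36.4 and 43.8 CPM, then 241, 131 and 224 CPM, then 353, 574 and 141 CPM. Of the 11 inhibitory neuron markers, 7 had their lowest levels in S1001 to S1003. The part of inhibitory neuron RNA in the level of Sema3c was not tested.

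Sema5a (ENSMUSG00000022231, chr15:32244810-32696341), a transmembrane semaphorin known to limit synapse formation on dentate granule cells, varied within the sets of libraries rather than between them. It had 13.9, 13.3 and 15.6 CPM in S1001 to S1003, 15.1, 3.86 and 19.8 CPM in S1004 to S1006, and 8.28, 29.4 and 3.14 CPM in S1007 to S1009. S1005 and S1009 were the lowest libraries and S1008 the highest. The dentate granule neuron marker C1ql2 had 21.1, 19.5, 22.9, 19.8, 2.69, 13.4, 5.38, 36.1 and 2.28 CPM in S1001 to S1009 in turn, with the same 2 libraries lowest and the same library highest. Prox1, a transcription factor of granule cells, likewise had its highest level in S1008 (26.0 CPM) and low levels in S1005, S1007 and S1009 (3.52, 1.75 and 4.25 CPM). Both markers were picked after their values were seen. Over all 9 granule neuron markers, S1008 was the highest library for 7, and S1005 and S1009 were the lowest for 3. In S1009 Calb1 was at its highest (405 CPM) and C1ql3 at its second highest (34.5 CPM), unlike Sema5a. The whole list was less uneven, at 314 to 548 CPM summed, most of it Calb1 (214 CPM or more in every library), with C1ql3 second (11.2 to 36.9 CPM), and 8 of the 9 varied at least 2-fold. Its part in the level of Sema5a was not tested. Without S1001 to S1003 the spread of Sema5a was 2.07, beside 2.09 with them.

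Sema3a, the classical repellent that acts through Nrp1, was low everywhere, with a highest level of 7.80 CPM in S1007 and a lowest of 1.05 CPM in S1009. It had 4.67, 6.38 and 6.94 CPM in S1001 to S1003 and 4.00, 1.10 and 2.18 CPM in S1004 to S1006. The class 6 semaphorins, transmembrane ligands of A-class plexins, varied 2-fold in 3 of 4 genes (Sema6a, Sema6b and Sema6c): Sema6b ranged from 9.59 CPM in S1006 to 28.9 CPM in S1007, and Sema6a and Sema6c stayed at or below 5.32 CPM. Without S1001 to S1003 the spread of Sema6a was 0.71, under 2-fold, and that of Sema4c 0.63. Sema4c ranged from 0.218 to 2.13 CPM. Sema3e and Sema4f, the semaphorins of highest FPKM, were even by comparison. Sema3e had 94.9 to 159.6 CPM with a spread of 0.41, and Sema4f 22.8 to 39.4 CPM with a spread of 0.49. The other 6 semaphorins that were measured and did not vary 2-fold had spreads of 0.31 (Sema4g) to 0.89 (Sema5b).

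**Figure D3:**
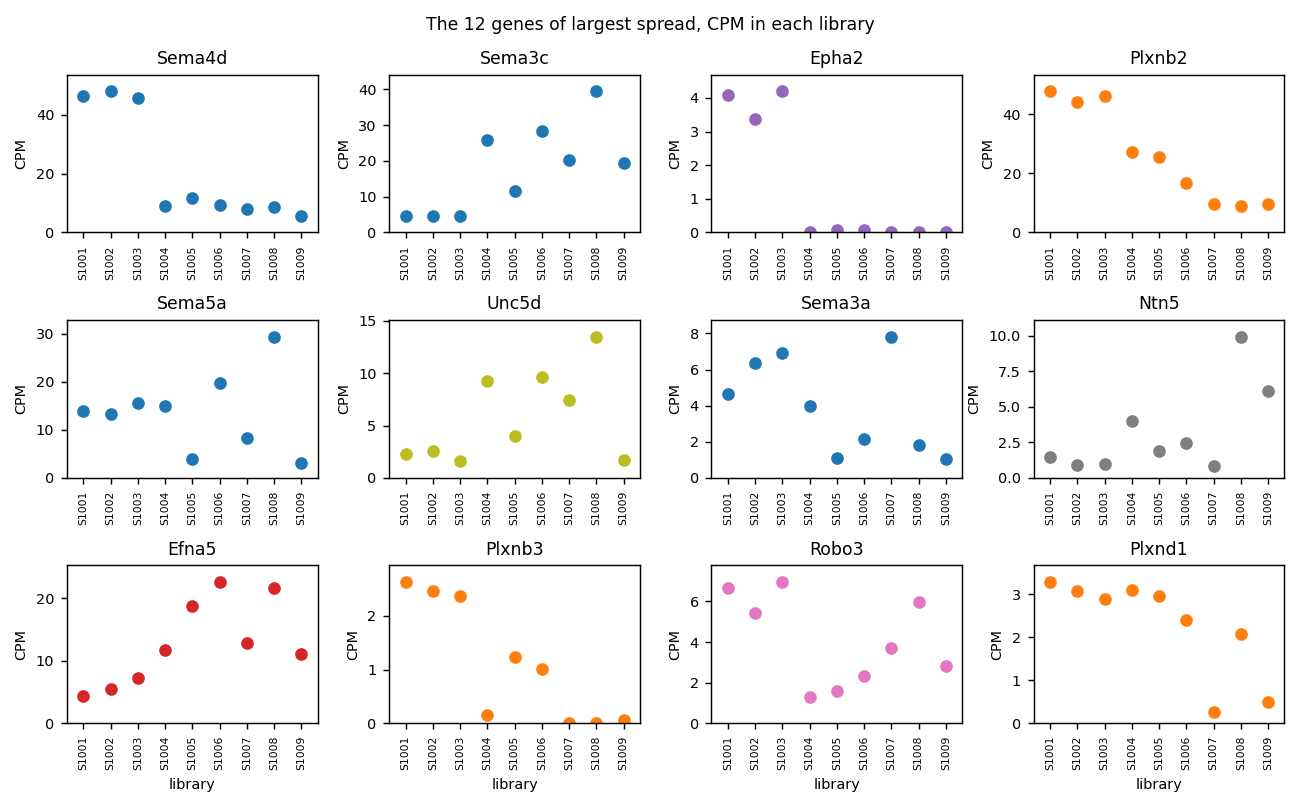
TMM-scaled CPM in each of the 9 libraries for the 12 guidance genes of largest spread, 1 panel per gene with its own linear axis from 0, coloured by family. Sema4d, Epha2, Plxnb2 and Plxnb3 are highest in S1001 to S1003, Sema3c is lowest there, and Sema5a peaks in S1008 at 29.4 CPM.

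Of the neuropilins and the remaining plexins, Nrp2 and Plxnd1 varied 2-fold. Nrp1, co-receptor for class 3 semaphorins and for VEGF, had 89.6, 83.3, 93.3, 109, 91.4, 104, 75.9, 84.5 and 81.2 CPM in S1001 to S1009, a spread of 0.36. Nrp2 had 21.4 to 25.6 CPM in 7 libraries and 11.6 and 9.18 CPM in S1007 and S1009. Those 2 libraries set its spread of 1.03, since leaving out either brought it below 2-fold. Plxnd1 showed a like picture, at 2.07 to 3.28 CPM in 7 libraries but had only 4 counts in S1007 and 8 in S1009. Its spread of 1.46 also went below 2-fold without either library. Plxna2, a receptor for Sema6a and Sema3a signalling, had the smallest spread of all guidance genes that averaged 10 CPM or more (0.11), at 57.4 CPM in S1005 and 68.6 to 80.4 CPM elsewhere. Plxna1 and Plxna4 were lowest in S1004 to S1006, at 43.1 to 46.1 and 71.8 to 81.0 CPM, and had 60.0 to 71.7 and 91.7 to 113 CPM in the other libraries. Exons of Gm26811 cover 10.7% of the exonic bases of Plxna1. Plxnc1, the receptor of Sema7a, was the opposite, with 39.8, 51.6 and 45.4 CPM in S1004 to S1006 and 24.7 to 30.2 CPM in the others, at a spread of 0.71.

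Several Eph receptors were abundant and most were even, and Epha2 was the 1 of 11 that varied 2-fold. Epha5, a receptor for A-class ephrins, had 191, 186, 197, 199, 169, 199, 209.6, 208 and 206 CPM in S1001 to S1009. Epha4 (ENSMUSG00000026235, chr1:77367185-77515088), known in the hippocampus for restraining dendritic spines, had 319, 339, 339.9, 302, 213, 275, 365, 363 and 398 CPM, a spread of 0.41. S1005 was lowest for both. Epha7 (ENSMUSG00000028289, chr4:28813131-28967499) had 394, 456 and 424 CPM in S1001 to S1003, 279.7, 113 and 280.3 CPM in S1004 to S1006, and 348, 278 and 229.8 CPM in S1007 to S1009. S1005 stood apart at the low end, and its spread was 0.88 by the rule but 2.00 from the highest to the lowest library. Summed over all Eph receptors, S1005 had 603 CPM and the other libraries 888 to 1156 CPM. The other 7 Eph receptors that averaged 1 CPM or more had spreads of 0.48 (Ephb1) to 0.85 (Ephb6).

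Of the ephrins, Efna5 alone varied 2-fold. Efna5 (ENSMUSG00000048915, chr17:62604184-62881317), a repellent cue in topographic maps, had 4.43, 5.53 and 7.32 CPM in S1001 to S1003, 11.7, 18.8 and 22.5 CPM in S1004 to S1006, and 12.9, 21.6 and 11.1 CPM in S1007 to S1009. S1001 to S1003 were the lowest 3, and over the other 6 libraries the spread was 0.79 instead of 1.79. Efna3, the abundant A-class ephrin, had 72.6 to 79.0 CPM in S1004 to S1006 and 91.9 to 122 CPM in the others. The B-class ephrins, which can signal backwards into the cell that carries them, were even by the rule: Efnb3 had 33.1 to 67.6 CPM, Efnb2 19.4 to 47.7 CPM and Efnb1 6.83 to 14.6 CPM, with spreads of 0.56, 0.70 and 0.24. S1006 was the lowest library for Efnb1 and Efnb3 and the highest for Efnb2.

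None of the 3 Slits passed 2-fold by the rule, and of the Robos only Robo3 did. Slit1, a repellent made by neurons, had 55.2 to 60.3 CPM in S1001 to S1003, a lowest level of 36.2 CPM in S1006 and a highest of 80.5 CPM in S1009, with a spread of 0.45. Slit3 had 18.6 CPM in S1006 and 29.3 to 44.6 CPM elsewhere, and Slit2 ranged from 6.73 CPM in S1007 to 33.6 CPM in S1005. The spread of Slit2, 0.97, passed 2-fold without S1009 and with scaling to total counts. Robo2, a Slit receptor that in the adult hippocampus also acts at CA1 synapses, had 54.1 to 65.1 CPM, a spread of 0.24, and Robo1 10.6 to 18.4 CPM, a spread of 0.35. Robo3 (ENSMUSG00000032128, chr9:37415669-37433246), a divergent Robo known from commissural axons, differed from both. It had 6.64, 5.45 and 6.94 CPM in S1001 to S1003, 1.32, 1.59 and 2.33 CPM in S1004 to S1006, and 3.70, 5.97 and 2.83 CPM in S1007 to S1009. All of S1004 to S1006 lay below all other libraries, and the spread of 1.56 was 0.84 without S1001 to S1003.

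In the netrin system, the netrin-G ligand Ntng1 was the main ligand by level, at a median of 4.16 FPKM. Ntng1 (ENSMUSG00000059857, chr3:109780040-110144011) is anchored to the axon membrane and binds Lrrc4c on the postsynaptic side rather than Dcc. It had 20.8, 22.3 and 24.0 CPM in S1001 to S1003, 50.0, 51.3 and 43.1 CPM in S1004 to S1006, and 35.5, 44.5 and 28.4 CPM in S1007 to S1009. The lowest 3 were again S1001 to S1003, and its spread of 1.13 was 0.54 without them and also went below 2-fold without S1004 or without S1005. Lrrc4c itself had 122 to 164 CPM in the 9 libraries, a spread of 0.39. Ntn5 ranged from 0.807 CPM in S1007 to 9.93 CPM in S1008. Exons of Sec1 cover 23.4% of the exonic bases of Ntn5, and whether reads were counted by strand is not stated in the sources, so its values are uncertain.

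Netrin receptors split by level and by spread. Unc5a (ENSMUSG00000025876, chr13:54949411-55006018) had 95.6, 80.6, 86.4, 65.7, 87.9, 56.3, 96.4, 100.2 and 110.3 CPM in S1001 to S1009, a spread of 0.60. Unc5d (ENSMUSG00000063626, chr8:28646717-29219636), also a receptor for the adhesion protein Flrt2, was low and uneven. It had 2.29, 2.61 and 1.60 CPM in S1001 to S1003, 9.21, 4.00 and 9.67 CPM in S1004 to S1006, and 7.47, 13.5 and 1.73 CPM in S1007 to S1009. S1009 lay among S1001 to S1003, and S1008 was the highest, as it was for Sema3c. Unc5d had a spread of 1.97, and of 1.07 without S1001 to S1003. Unc5c had 19.2 to 40.1 CPM and a spread of 0.98, and Unc5b 0.0616 to 2.29 CPM and a spread past 2-fold, which went below it without any 1 of S1005, S1007, S1008 and S1009. Dcc had 10.1 and 10.2 CPM in S1007 and S1008 and 3.84 to 6.38 CPM in the other 7 libraries. Its spread of 1.07 passed 2-fold with TMM scaling but was under it with scaling to total counts, and without any 1 of S1004, S1005, S1007 and S1008.

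**Figure D4:**
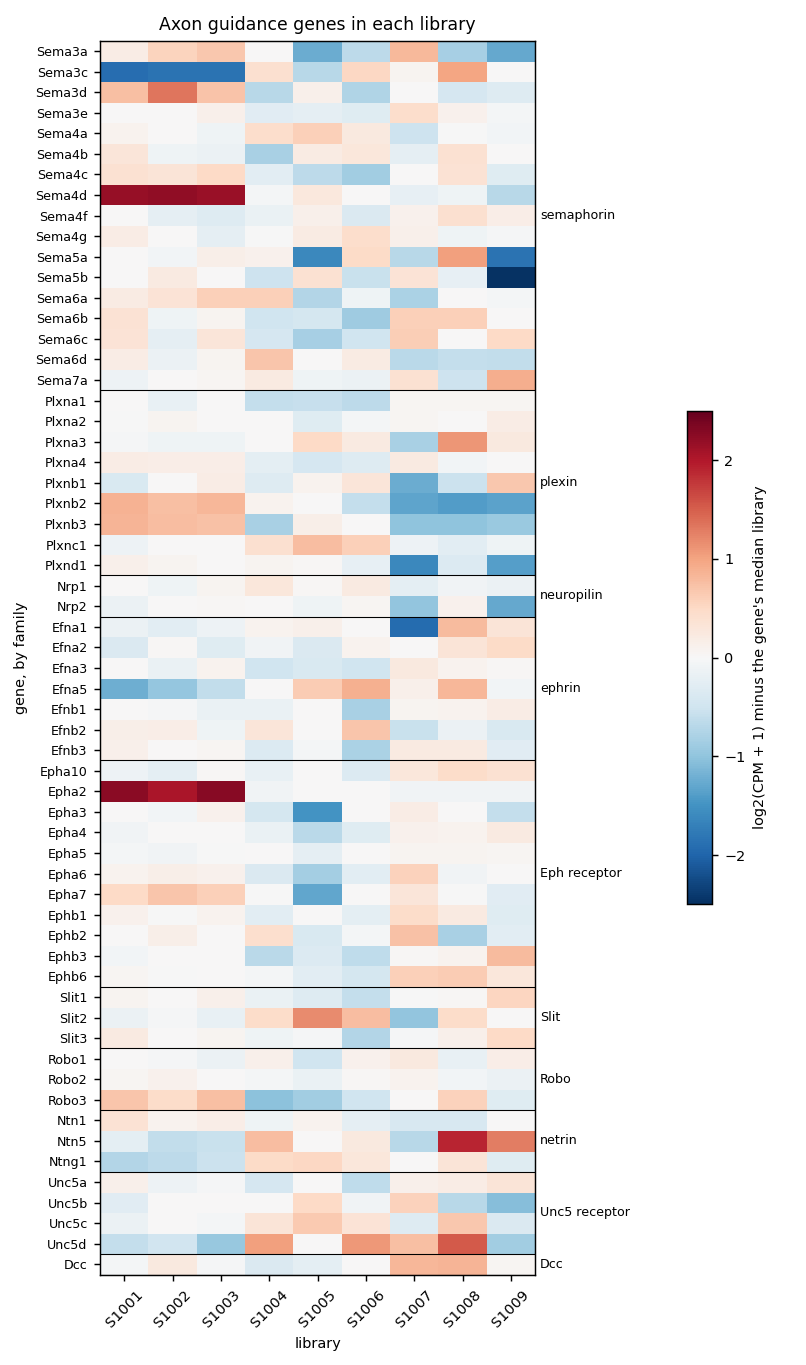
Level of each of the 60 guidance genes that averaged at least 1 CPM in each of the 9 libraries, as log2(CPM + 1) minus the gene's median over the libraries, grouped by family; red is higher and blue lower than that median. Columns S1001 to S1003 look alike, and Epha2, Sema4d and Plxnb2 are red there and Sema3c blue. Most Eph receptors are pale, but Epha3 and Epha7 are blue in S1005.

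Several marker lists of other cell types were highest in the same libraries as Sema4d, Plxnb2, Plxnb3, Epha2 and Sema3d. Microglia and macrophage markers varied at least 2-fold in 13 of 13 genes, and 11 of the 13 followed the same stepwise order as Plxnb2, among them C1qb at 3925, 3326 and 3548 CPM in S1001 to S1003, 1616, 1166 and 1288 CPM in S1004 to S1006 and 7.00, 23.6 and 2.90 CPM in S1007 to S1009. The exceptions were Tmem119 and Mrc1, and Mrc1 was highest in S1004 to S1006 (346 to 423 CPM, beside 89.0 to 102 CPM in S1001 to S1003). Oligodendrocyte markers summed to 633 to 654 CPM in S1001 to S1003 and to 32.0 to 159.9 CPM in the others, and 10 of 10 that averaged 1 CPM or more varied 2-fold. Oligodendrocyte precursor markers summed to 118 to 123 CPM in S1001 to S1003 and 9.92 to 26.1 CPM in the others, 8 of 8 varying. Plasma and B cell markers summed to 3534 to 3676 CPM against 197 to 389 CPM, 6 of 7 varying. Nearly all of the lower sums was Xbp1, which did not vary 2-fold (191 to 388 CPM, a spread of 0.47). Every other marker of this list had at most 4.76 CPM in S1004 to S1009. Abundant markers beside C1qb were C1qc of microglia (3.39 to 3172 CPM), Mbp of oligodendrocytes (24.2 to 175 CPM), Olig1 and Lhfpl3 of their precursors (0.308 to 53.2 and 2.98 to 19.7 CPM), and Igkc and Jchain of plasma cells. Jchain ranged from 0.202 to 1131 CPM. Igkc, an antibody light chain gene, had at most 0.853 CPM in S1004 to S1009, and at least 2133 CPM in S1001 to S1003. The part of these cells in the levels of the 5 guidance genes was not tested.

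Other lists did not follow that order. Astrocyte markers, when summed, ranged from 53.0 CPM in S1007 to 287 CPM in S1005, with 8 of 12 varying. Gene by gene, S1001 to S1003 were the highest libraries for 3 of these 12. Mural cell markers ranged from 5.86 to 39.5 CPM, and endothelial markers from 0.609 to 10.96 CPM, with the defining genes Cldn5 and Cdh5 at no more than 0.158 CPM in any library. Inhibitory neuron markers, 10 of 11 varying 2-fold, were lowest in S1001 to S1003 when summed, as were Sema3c, Efna5 and Ntng1. Gene by gene this held for 7 of 11 markers, and not for Sst, Npy, Vip and Pvalb. The 2 most abundant markers were Sst (81.0 to 517 CPM) and Npy (45.4 to 490.5 CPM) of inhibitory neurons, Aldoc (19.2 to 149 CPM) and Slc1a3 (5.05 to 46.6 CPM) of astrocytes, and Rgs5 (4.13 to 27.6 CPM) and Vtn (0.122 to 11.05 CPM) of mural cells. For endothelial cells they were Kdr (0.548 to 9.65 CPM) and Pecam1 (0 to 2.38 CPM). Pyramidal neuron markers varied in 4 of 12 genes and were lowest, when summed, in S1005 (4499 CPM) and highest in S1009 (10321 CPM).

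**Figure D5:**
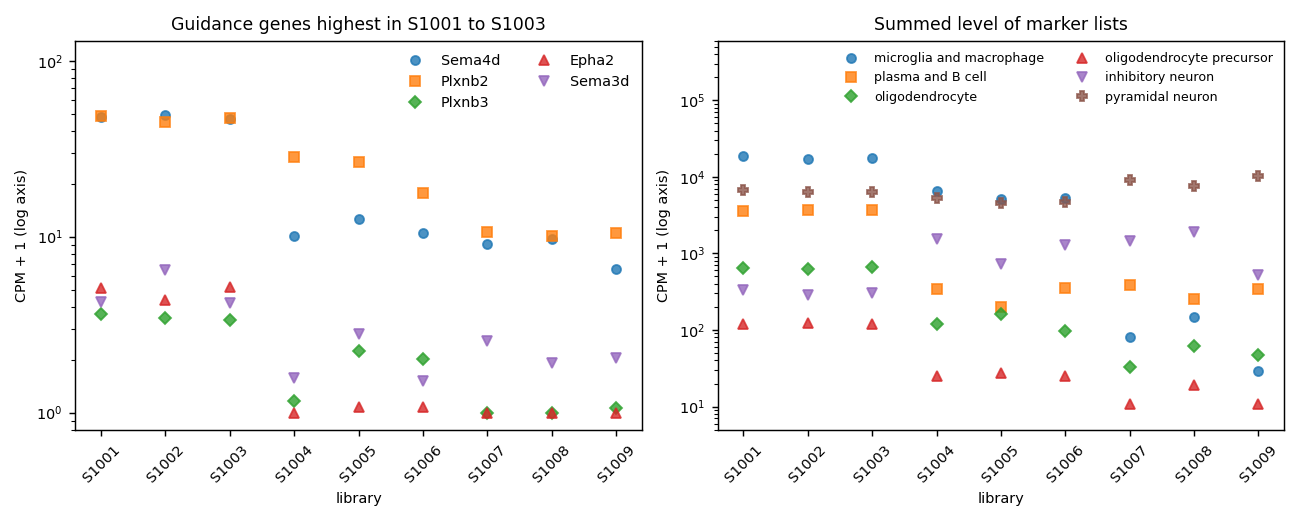
Left, CPM + 1 on a log axis of the 5 varying guidance genes that were highest in S1001 to S1003, in each of the 9 libraries; right, the summed CPM + 1 of 6 marker lists in the same libraries. Plxnb2 and the microglia and macrophage list step down together from S1001 to S1003 through S1004 to S1006 to S1007 to S1009, while the pyramidal neuron list stays between 4499 and 10321 CPM.

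Genes that act with or downstream of the receptors varied about as often as all genes: 23 of 89 (25.8%, beside 26.4%), with a median spread of 0.67. Among 28 co-receptors, adhesion partners and further ligands, 7 varied 2-fold. Reln, the secreted layering cue that inhibitory neurons make in the adult hippocampus, had 4.10, 4.69 and 3.51 CPM in S1001 to S1003, 16.5, 8.07 and 15.5 CPM in S1004 to S1006, and 11.3, 14.4 and 2.16 CPM in S1007 to S1009. It resembled Unc5d, with S1009 among the low libraries. Cxcr4, the Cxcl12 receptor, had 2.15 to 2.46 CPM in S1001 to S1003, 1.16 to 1.21 CPM in S1004 to S1006 and 0 to 0.426 CPM in S1007 to S1009. The most abundant of the list were the adhesion molecules Cntn1, at 369.9 to 554 CPM, and Chl1, at 197 to 338 CPM.

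Of 33 cytoplasmic effectors 8 varied 2-fold. Fes, a tyrosine kinase linked to plexin signalling and abundant in myeloid cells, had 6.54 to 10.6 CPM in S1001 to S1006 and 0 counts in S1007 to S1009. Mical1, an actin-oxidising enzyme downstream of plexins, had 5.08, 5.22 and 6.18 CPM in S1001 to S1003 and 0 to 2.44 CPM elsewhere. The most abundant, the calcineurin subunit Ppp3ca and the actin-severing protein Cfl1, had 1978 to 4925 and 1449 to 2025 CPM, with spreads of 0.57 and 0.36. Of 28 small GTPases and their regulators 8 varied as well. Dock1, a Rac activator downstream of Dcc, had 4.30 to 7.41 CPM in S1001 to S1006 and 0, 0.792 and 0.0616 CPM in S1007 to S1009. Chn2, a Rac inhibitor, ranged from 2.28 CPM in S1009 to 21.4 CPM in S1008. Its relative Chn1, which acts downstream of Epha4, was abundant at 1273 to 2530.5 CPM with a spread of 0.50, and Cdc42 had 635 to 793 CPM with a spread of 0.20. These 4 abundant signalling genes thus stayed under 2-fold by the rule, as Epha4, Epha5 and Epha7 did.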

How the data were processed

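RNA sequencing libraries S1001 to S1009 were used as deposited. Per the file headers, each library has 1 table in which the authors deposited, gene by gene, the raw count and the FPKM. The submitters' processing notes name the tools HTSeq 0.6.1, HISAT2 2.0.1, Trimmomatic 0.30 and bcl2fastq 2.17.1.14, in no stated order, and the build mm10. Whether counting used strand, how it treated reads with several matches, and which annotation it used are not stated in these sources, which makes genes that overlap a neighbour uncertain. The tables' column headers carry letters that the labels do not explain, and they were not used for grouping. Replicates 1 to 9 are names for S1001 to S1009. No batch is given in the labels.

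TMM factors (edgeR 4.0.16, R 4.3.3) gave CPM, and spread was taken on log2(CPM + 1) over genes that averaged 1 CPM or more. FPKM values were used for levels between genes. Coordinates came from GENCODE M21. The script for the spread was tested on simulated data, with genes raised in 3 of 9 libraries. The 2-fold rule was passed by 53.0% of genes raised 2-fold, 100% of those raised 4-fold and 0% of unchanged genes. Unchanged genes had a median spread of 0.30 there, beside 0.66 over all genes of the real data. Those pass rates apply to the simulated noise and do not give the rates in these libraries. No test between groups was run, since no library has a group. A chi-square on the counts compared each pair of libraries, and single libraries were set against the rest by Dixon's ratio on log2(CPM + 1). With totals of 12136830 to 19151596, 1 count stands for 0.0526 to 0.0820 CPM. The report names, per family, the 2 genes of highest median FPKM and the 2 of largest spread. It also names the 12 largest spreads and the 6 smallest at 10 CPM or more. Of each pathway list it names the 2 most variable and the 2 most abundant, and of each marker list the 2 most abundant and defining genes at or near 0, except 1 marker that is not reported here. Other genes were named after their values were seen: Sema3d, Sema4c, Sema4g, Sema5b, Sema6a, Sema6b, Sema6c, Ephb1, Ephb6, Epha6, Plxna3, Plxnb1, Plxnc1, Ntn1, Epha3, Efna1, Lrrc4c, and the genes below the minimum. So were the markers Gad1, C1ql2, Prox1, Xbp1, Vip, Pvalb, Tmem119 and Mrc1. The genes and lists were chosen with earlier results of these data known. Alternatives were a pseudocount of 0.5 or 5 CPM, a minimum of 10 CPM or none, the full range, and leaving out libraries. Scalings by total counts, by totals free of mitochondrial genes and by DESeq2 1.42.0 size factors were tried too. The omission of S1001 to S1003 together was chosen after seeing the data.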

Additional observations from a re-analysis of the deposited data

Results flagged for a closer look

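In 7 of 60 guidance genes (11.7%, beside 5.43% of all genes) a single library stood far from the next, by a gap that was more than Dixon's critical share of the whole range of log2(CPM + 1) over the 9 libraries. This line is passed by chance in about 1 in 20 sets of values, and the libraries are not known to be one group. S1005 was the lowest library for Epha3 (gap 0.529 of the range, 7.03 CPM and next 13.8 CPM), for Epha7 (0.507, 113 CPM and next 229.8 CPM) and for Plxna2 (0.53, 57.4 CPM and next 68.6 CPM). S1006 was the lowest for Slit3 (0.516, 18.6 CPM and next 29.3 CPM) and Efnb1 (0.644, 6.83 CPM and next 11.2 CPM). Efna1 was lowest in S1007 (0.611, 0.336 CPM and next 3.23 CPM), and Sema5b in S1009 (0.674, 0 counts and next 2.76 CPM).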

How the results depend on the processing

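Of the guidance genes, 21 varied at least 2-fold with TMM scaling (35.0%, beside 26.4% of all genes). With total counts or DESeq2 size factors 21 did (35.0%, beside 26.5%). With totals without mitochondrial genes it was 20 (33.3%, beside 26.7%). The count was 8 with a minimum mean of 10 CPM (37 genes measured in place of 60, 21.6% beside 18.3%). It was 7 with a pseudocount of 5 CPM (11.7%, beside 13.2%) and 42 from the highest to the lowest library (70.0%, beside 52.6%). Without S1002 and S1003 it was 13 (22.4%, beside 19.6%), and without S1001 to S1003 it was 11 (19.6%, beside 15.5%). The minimum of 10 CPM and the omissions leave fewer genes or libraries, and the full range includes both end libraries. The median spread of 0.715 (beside 0.664 for all genes) became 1.368 (beside 1.036) from the highest to the lowest library. Leaving out each library in turn gave 14 varying genes (without S1007, 23.3% beside 22.5%) to 20 (without S1002, 33.9% beside 24.5%). It gave 57 to 60 genes measured and medians of 0.601 to 0.708. Of 36 genes named by rule, 20 crossed the 2-fold line under some alternative, among them Dcc under 7 and Unc5b under 5. Slit2 and Unc5c, just under 2-fold, were over it with total-count scaling. No paired analysis was possible because no library has a group. Genes under a few CPM rest on few counts, and for them the pseudocount sets much of the spread.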
